A study of Mus musculus with 2 samples.

Results

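The genes described here sense double-stranded RNA inside the cell or act directly on it. They are the oligoadenylate synthetase genes Oas1a, Oas2 and Oas3, the synthetase-like genes Oasl1 and Oasl2, the sensor genes Ifih1 and Zbp1, the adaptor gene Mavs and the RNA-editing gene Adar. They were chosen by name, and all 9 were found among the 56791 genes of the count table that the authors deposited. The data came from the RAW264.7 line, mouse macrophage-like cells of leukaemic origin that the labels call wild type. One culture received 10000000 particles of a preparation named FAPD10-exos over 24 h together with 20 ng of IL-4, the recombinant mouse protein. The vehicle culture received the same IL-4 for the same time, so both were under the cytokine that induces alternative (M2) activation, and the question was what FAPD10-exos does to that state. Each group held 1 library, so no difference below has a replicate check, no p-value was computed, and the values describe these 2 libraries.

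Long double-stranded RNA is rare in healthy cytoplasm and is read as a sign of viral infection. OAS enzymes that bind it make short oligoadenylates, which lead to the cutting of RNA in the cell. MDA5, the product of Ifih1, assembles on long double-stranded RNA and signals through MAVS on the mitochondrial surface to the kinases that switch on type I interferon. ADAR changes adenosines in the cell's own duplexes to inosines and so keeps them from being sensed, and ZBP1 binds nucleic acids in the Z form and can trigger cell death. Most of these genes are themselves induced by interferon, whereas Mavs is made in most cells at rest.

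The FAPD10-exos library held 37196241 counts and the vehicle library 36152743 counts. Values are given as counts and as CPM, counts per 1000000 of the library size after TMM scaling, where 1 CPM was 35.6 counts in the FAPD10-exos library and 37.8 counts in the vehicle library. Ratios are FAPD10-exos over vehicle, and the range in parentheses is a 95% interval for counting error only. Low counts were mostly even numbers, as when both ends of a read pair are counted, so the intervals were computed on halved counts. The term measured is kept for the 12264 genes whose mean over both libraries reached 1 CPM. A gene was counted as lower or higher when its ratio was at least 1.5-fold and the interval excluded 1. Of the macrophage markers set out for checking the label, 8 of 9 were measured, with summed levels of 2029 CPM in the FAPD10-exos and 2305 CPM in the vehicle library, of which Lyz2 made up 1013 and 1110 CPM. Adgre1, a macrophage surface receptor gene, was 2.92-fold higher (2.06 to 4.20) in the FAPD10-exos library and Ptprc, a leukocyte phosphatase gene, was 1.56-fold lower (1.49 to 1.62), the other 6 measured markers were called in neither direction, and Mertk had 0 and 2 counts. The part of these marker differences in the results below was not tested. The 12 markers of fibroblasts, endothelium, lymphocytes and epithelium together had 32 counts in the FAPD10-exos and 14 in the vehicle library, and 7 of them were at 0 in both, among them Col1a1, Dcn, Cd3e and Epcam. In bulk RNA, fewer cells that express a gene and less RNA of it per cell cannot be told apart.

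Of the 9 genes, 8 were measured and Zbp1 was under the limit. Oas2, Oas3, Oasl1, Oasl2 and Adar were at least 1.5-fold lower in the FAPD10-exos library, and none was at least 1.5-fold higher. Among all measured genes, 18.8% were called lower and 16.2% higher by the same rule. The median log2 ratio of the 8 genes was -0.72, against 0.01 for all measured genes. At a 2-fold threshold 2 of the 8 were lower, Oas3 and Oasl2, and 0 were higher, beside 8.64% lower and 4.17% higher of all measured genes. Among the 8 measured genes, the ratio was above 1 in Oas1a alone, and after the trend with gene length was removed the interval of Oas1a included 1. After that step Adar, at a ratio of 0.839, was no longer at least 1.5-fold lower, and Mavs, at 0.6345, was.

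**Figure D1:**
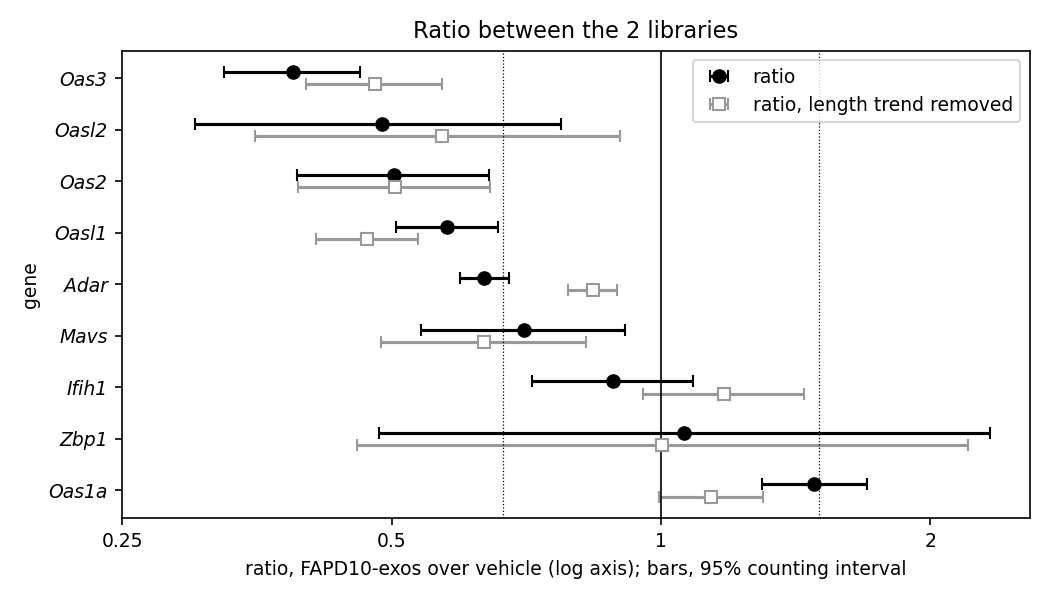
Ratio of scaled counts, FAPD10-exos over vehicle, on a log axis for each of the 9 genes, with 95% counting intervals. Black circles are ratios as measured, open grey squares are ratios after the trend with exon length was removed, the solid line marks 1 and the dotted lines mark 1.5-fold. The black intervals of Oas3, Oasl2, Oas2, Oasl1, Adar and Mavs lie below 1 and that of Oas1a lies above it.

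Oas3 encodes the largest mouse OAS enzyme, whose human counterpart favours long double-stranded RNA. It had 357 counts in the FAPD10-exos library, against 978 counts in the vehicle library, or 10.03 against 25.88 CPM. It was 2.58-fold lower (2.17 to 3.08), the 428th from the lowest of 12264 measured genes when ranked by ratio. Oas2, which encodes a further active synthetase, had 197 counts in the FAPD10-exos library, against 416 counts in the vehicle library. It was 1.99-fold lower (1.56 to 2.55). Oas1a encodes a single-domain synthetase and was the exception, with 1055 counts in the FAPD10-exos library, against 755 counts in the vehicle library. Its ratio of 1.48 (1.30 to 1.70) lay above 1 but just under the 1.5-fold threshold, and its interval was clear of those of Oas2 and Oas3.

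These synthetase genes lie side by side on mouse chromosome 5. By the table's own coordinates, for which no mouse build is stated in the sources used here, Oas2 runs from 120868398 to 120887918, Oas3 from 120891163 to 120915726 and Oas1a from 121034319 to 121045584, all on the minus strand and all counted over their exons. The other Oas1 genes lie between Oas3 and Oas1a or just beyond Oas1a. Of these, only Oas1g, an active relative of Oas1a, was measured, with 456 counts in the FAPD10-exos and 406 in the vehicle library (ratio 1.19, 0.983 to 1.45). Oas1b had 25 and 29 counts, Oas1c 42 and 18, and Oas1h 20 and 15 in the FAPD10-exos and vehicle libraries, and Oas1d, Oas1e and Oas1f had 0 counts in both. Oas1a and Oas1g are near copies: 57.6% of the 50-base windows in Oas1a transcripts also occur in another gene, in each case Oas1g. The sources used here do not say how reads with several matches were handled, so the division of reads between this pair is uncertain. Their sum was 1511 counts in the FAPD10-exos against 1161 counts in the vehicle library (ratio 1.38, 1.24 to 1.54). The division of shared reads does not affect this sum, but dropping such reads or counting them for both genes would. The sum was not corrected for gene length. With the trend with gene length removed, the ratio was 1.14 (0.994 to 1.30) for Oas1a and 0.961 (0.792 to 1.17) for Oas1g. Oas2, at 0.505, and Oas3, at 0.479, were still at least 1.5-fold lower after that step. Oas2 and Oas3 together had 554 counts in the FAPD10-exos against 1394 counts in the vehicle library and were 2.37-fold lower (2.06 to 2.73). In Oas2 0 and in Oas3 37 of the windows were shared with other genes, which is 0.521% of those of Oas3. Over all 10 genes of the cluster the counts summed to 2152 in the FAPD10-exos and 2617 in the vehicle library (ratio 0.873, 0.805 to 0.947).

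**Figure D2:**
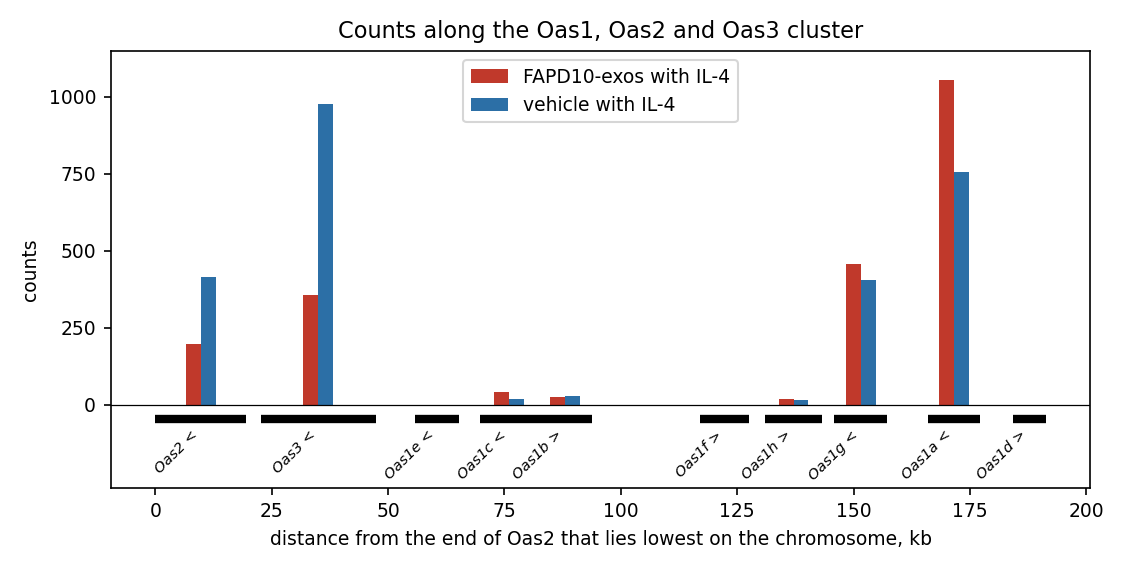
Counts of the Oas1, Oas2 and Oas3 genes by position along the cluster in kb from the lowest base of Oas2, with red bars for FAPD10-exos and blue bars for vehicle. Black boxes are the genes and the arrowheads beside their names give the strand. At Oas2 and Oas3 the vehicle bar is the taller, at Oas1g and Oas1a the FAPD10-exos bar, and the genes between them have 42 counts or fewer.

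The promoters of Oas3 and Oas1a are shown because both hold the core of the interferon-stimulated response element, the site through which interferon signalling and interferon regulatory factors act, while the ratios of the genes lay on opposite sides of 1. Ifih1, whose interval included 1, is shown as the remaining member with a match. The motif searched was GAAA, any 2 bases and GAAA again, on either strand, over 250 bases before and 50 bases after the start of each gene, in RefSeq sequences of build GRCm38.p6. Matches are in capitals, and sequences run 5′ to 3′ on the strand of the gene.
Oas3, chr5:120777610-120777909, minus strand: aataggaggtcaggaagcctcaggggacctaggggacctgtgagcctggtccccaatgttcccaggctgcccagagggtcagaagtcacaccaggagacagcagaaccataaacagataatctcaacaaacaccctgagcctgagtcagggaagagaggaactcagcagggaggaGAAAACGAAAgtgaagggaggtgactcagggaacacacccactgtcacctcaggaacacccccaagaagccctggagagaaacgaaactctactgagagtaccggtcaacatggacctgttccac
Oas1a, chr5:120907476-120907775, minus strand: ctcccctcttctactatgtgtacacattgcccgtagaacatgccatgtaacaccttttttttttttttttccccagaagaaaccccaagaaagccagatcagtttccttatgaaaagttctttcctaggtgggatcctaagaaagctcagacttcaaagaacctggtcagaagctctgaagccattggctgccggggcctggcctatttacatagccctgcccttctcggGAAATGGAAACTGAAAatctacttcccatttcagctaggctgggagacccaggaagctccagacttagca
Ifih1, chr2:62646206-62646505, minus strand: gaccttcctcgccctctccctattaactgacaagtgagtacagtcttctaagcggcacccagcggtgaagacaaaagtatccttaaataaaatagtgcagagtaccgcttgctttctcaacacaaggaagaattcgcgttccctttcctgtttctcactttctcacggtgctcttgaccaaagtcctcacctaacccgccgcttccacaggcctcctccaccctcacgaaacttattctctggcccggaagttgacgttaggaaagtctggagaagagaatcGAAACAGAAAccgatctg
In Oas3 the match GAAAACGAAA begins at base -75 from the start. In Oas1a there were 2 overlapping matches, GAAATGGAAA at base -20 and GAAACTGAAA at base -14, printed as 1 run of capitals. In Ifih1 GAAACAGAAA begins at base 33 after the start. Of the 7 members with an entry, these 3 had a match. Oasl1, Oasl2, Mavs and Adar, the last searched at several starts, had no exact match in these windows. Sequences close to the motif but not equal to it were not searched for, so such sites may be present. Oas2 and Zbp1 had no entry. Of all 32851 RefSeq promoters of this length 3.44% held the motif. Counted by gene, as for the members, it was 3.81% of 8506 measured genes with a promoter. Of 324 measured genes with a match, 20.99% were at least 1.5-fold lower in the FAPD10-exos library, against 18.99% of 8182 measured genes without one. A match of letters is a description and does not show a site in use.

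The synthetase-like genes were both lower. Oasl1, whose product lacks synthetase activity in the mouse and holds back translation of Irf7, had 716 counts in the FAPD10-exos library, against 1318 counts in the vehicle library, or 20.12 against 34.88 CPM. It was 1.73-fold lower (1.52 to 1.98). Oasl2, which encodes a synthetase with ubiquitin-like domains, had 57 counts in the FAPD10-exos library, against 124 counts in the vehicle library. It was 2.05-fold lower (1.30 to 3.31), with a wide interval from few counts. The intervals of Oasl1 and Oasl2 overlap, and neither reaches 1. They also lie on chromosome 5, apart from the cluster, with Oasl2 from 115034997 to 115050295 and Oasl1 from 115061299 to 115075974 on the plus strand.

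Neither the sensor genes nor Mavs reached the 1.5-fold threshold. Ifih1 had 346 counts in the FAPD10-exos library, against 416 counts in the vehicle library, and the interval of its ratio of 0.883, from 0.718 to 1.09, included 1. Zbp1 had 30 counts in each library, or 0.843 against 0.794 CPM, a ratio of 1.06 with an interval of 0.484 to 2.33. That interval holds a 2-fold difference in either direction, so one of that size was not detectable in Zbp1 at this depth. Mavs had 197 counts in the FAPD10-exos library, against 298 counts in the vehicle library. It was 1.42-fold lower (1.10 to 1.86), short of the 1.5-fold threshold. All 3 lie on chromosome 2, with Ifih1 from 62426142 to 62476599 and Zbp1 from 173048405 to 173060716 on the minus strand and Mavs from 131075983 to 131089945 on the plus strand.

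Adar had the highest counts of the set, 3162 in the FAPD10-exos library, against 5292 in the vehicle library, or 88.86 against 140.0 CPM. It was 1.58-fold lower (1.48 to 1.68), but 1.19-fold lower, under the threshold, after the trend with gene length was removed. The position of Adar is 89622329 to 89660753 on the plus strand of chromosome 3, and 16.8% of its exon length overlaps Chrnb2 on the other strand, which had 694 counts in the FAPD10-exos and 805 in the vehicle library. The sources used here state no strand setting for the counting, so reads in that stretch cannot be assigned to either gene. For Oasl1 the share in an antisense gene was 1.46% and for the other members it was 0%.

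Per kilobase of exon, Oas1a was the most abundant of the 9 genes in the FAPD10-exos library and the third in the vehicle library, by a count whose division from Oas1g is uncertain. In the FAPD10-exos library Oas1a stood at 15.73 CPM per kilobase, above Adar at 10.95 and Oasl1 at 7.72. The counting intervals of these levels did not overlap. Adar has 8118 nt of exon and a longest GENCODE M21 transcript of 5909 nt, while Oas1a has 1885 nt by both. The order of Oas1a and Adar was not checked per kilobase of transcript. Mavs at 1.66, Oas3 at 1.42, Oas2 at 1.24 and Ifih1 at 1.19 followed, each overlapping its neighbours in interval, and Oasl2 at 0.251 and Zbp1 at 0.239 were last. In the vehicle library Adar came first at 17.25 CPM per kilobase, then Oasl1 at 13.37 and Oas1a at 10.60, again with separate intervals. Oas3 at 3.66 lay above Oas2 at 2.47 and Mavs at 2.36, which could not be told apart, and Ifih1 at 1.35, Oasl2 at 0.515 and Zbp1 at 0.225 came last. By this measure Oas3 was clear of Oas2 and Mavs in the vehicle library and not in the FAPD10-exos library. The deposited exon length of Oas3 was 7069 nt, against 4720 nt for its longest GENCODE M21 transcript. For Oas2 these were 4451 and 3961 nt, and for Mavs 3345 and 3057 nt. Levels per kilobase of transcript were not computed, so this order is given for exon length only.

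**Figure D3:**
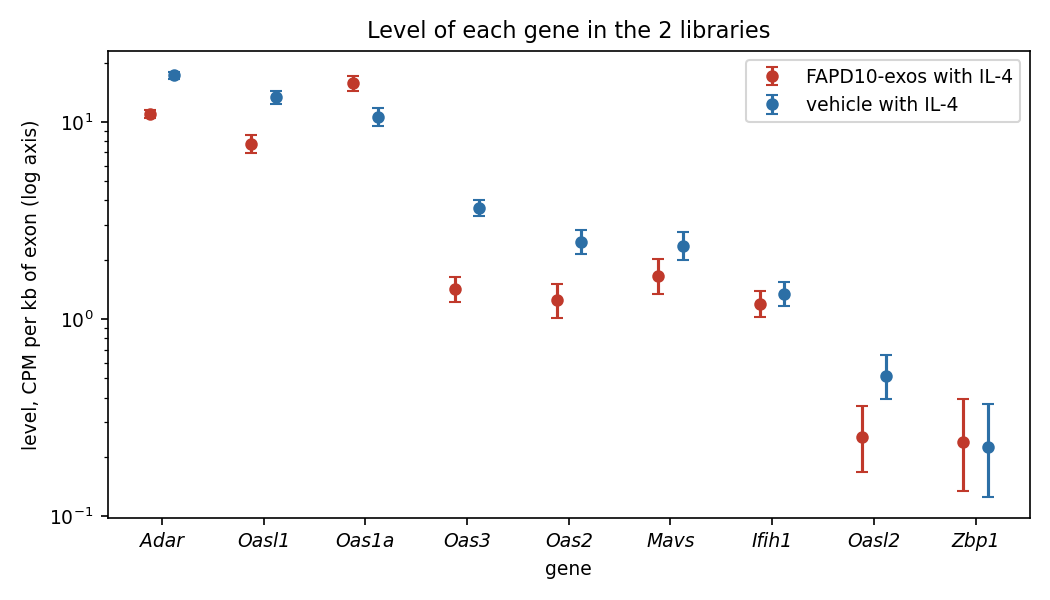
Level of each gene in CPM per kilobase of exon on a log axis, in red for FAPD10-exos and blue for vehicle, with 95% counting intervals as bars. The red point is below the blue one for Adar, Oasl1, Oas3, Oas2, Mavs and Oasl2 without overlap of the intervals except for Mavs, above it for Oas1a, and the intervals overlap for Ifih1 and Zbp1.

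Ratios went with gene length across the whole table. Spearman's rho between exon length and log2 ratio was -0.45 across 12264 measured genes, which are not independent replicates. With these genes cut into 10 equal bins by exon length, the median log2 ratio was 0.44 in the bin of shortest genes, against -0.62 in that of the longest. The members ran from 1885 nt in Oas1a, the shortest, to 8165 nt in Ifih1 and 8118 nt in Adar. Setting each gene against the running median at its length left Oas3 at -1.06, Oasl1 at -1.09, Oas2 at -0.99 and Oasl2 at -0.81 in log2. These 4 genes remained at least 1.5-fold lower, while Adar, at -0.25, did not, and Mavs, at -0.66, came past the threshold. Thus 5 of the 8 measured genes were lower after this step as before it, but not the same 5, and 0 were higher, beside 15.2% lower and 11.5% higher of all measured genes. Oas1a came to 0.18, an interval of 0.994 to 1.30 as a ratio, and Ifih1 to 0.23, on the other side of 0 from its value before. The median of the 8 was -0.73 after the step.

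**Figure D4:**
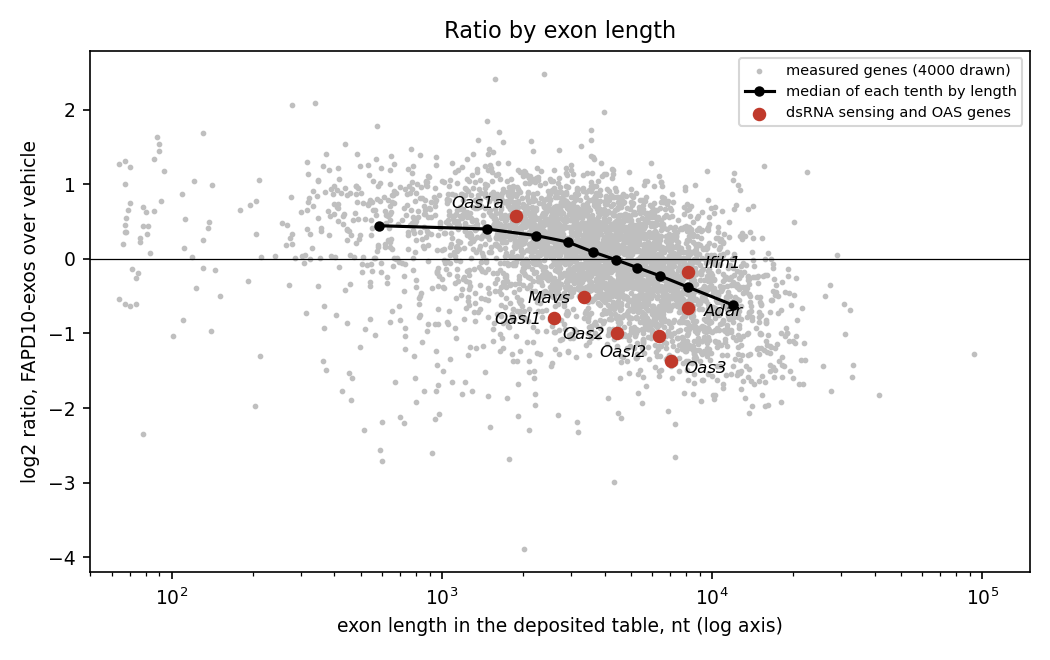
Log2 ratio, FAPD10-exos over vehicle, by exon length on a log axis. Grey points are 4000 measured genes drawn at random, the black line joins the medians of 10 equal bins of all measured genes by length, and red points are the 8 measured members. Oas2, Oas3, Oasl1, Oasl2 and Mavs lie well below the line at their length, Adar lies closer to it, and Oas1a and Ifih1 lie above it.

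The rest of the pathway was read from lists of 49 further genes, of which 37 were measured. Of these 8 were at least 1.5-fold lower and 2 higher, or 2 lower and 2 higher after the length trend was removed, and their median log2 ratio was -0.14. Lower genes thus made up 21.6% of the 37, near the 18.8% of all measured genes, and 5.41% after the length step, below the 15.2% of all measured genes. Higher genes made up 5.41% before and after the length step, against 16.2% and 11.5% of all measured genes. In the OAS arm, neither Oas1g nor Pde12 was called in either direction. Pde12, which degrades oligoadenylates, had a ratio of 1.15 (0.939 to 1.40).

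Among the RIG-I-like receptors and their cofactors, 2 of 6 measured genes were lower. Rigi, the sensor of RNA with a triphosphate end, had 569 counts in the FAPD10-exos against 984 counts in the vehicle library and was 1.63-fold lower (1.40 to 1.89), but it stood at -0.40 in log2 after the length trend was removed, under the threshold. Trim25, a ubiquitin ligase that acts on RIG-I, had 2274 counts in the FAPD10-exos against 5632 counts in the vehicle library and was 2.33-fold lower, with an interval of 0.3999 to 0.4596 for its ratio of 0.4288, and stood at -1.05 after that step. Dhx58, which encodes the regulator LGP2, had a ratio of 0.981 (0.800 to 1.20), and Zc3hav1, the zinc-finger antiviral protein gene, 0.819 (0.759 to 0.883). Rnf135 had a ratio of 1.10 (0.655 to 1.83) and Trim65 1.15 (0.816 to 1.61); both encode ubiquitin ligases, of RIG-I and of MDA5.

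Of 11 measured genes listed under MAVS signalling, 4 were lower and 1 higher. Ikbkg, the NEMO subunit of the IKK complex, was 1.90-fold lower (1.76 to 2.05), the adaptor gene Tank 1.74-fold (1.58 to 1.91), Traf6 1.66-fold (1.25 to 2.23) and Traf3 1.58-fold (1.38 to 1.80). Tank was the only one of the 4 still at least 1.5-fold lower after the length trend was removed. Tradd, an adaptor, was 1.51-fold higher (1.11 to 2.06), and at 0.20 in log2 after that step. The kinase genes Tbk1 and Ikbke had ratios of 0.929 (0.863 to 1.00) and 0.818 (0.678 to 0.985). Irf3, the transcription factor they activate, had a ratio of 1.34 (1.08 to 1.66) and Traf2 1.36 (1.12 to 1.65). Nlrx1 and Sting1 had ratios of 0.927 and 0.868, with intervals that included 1.

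**Figure D5:**
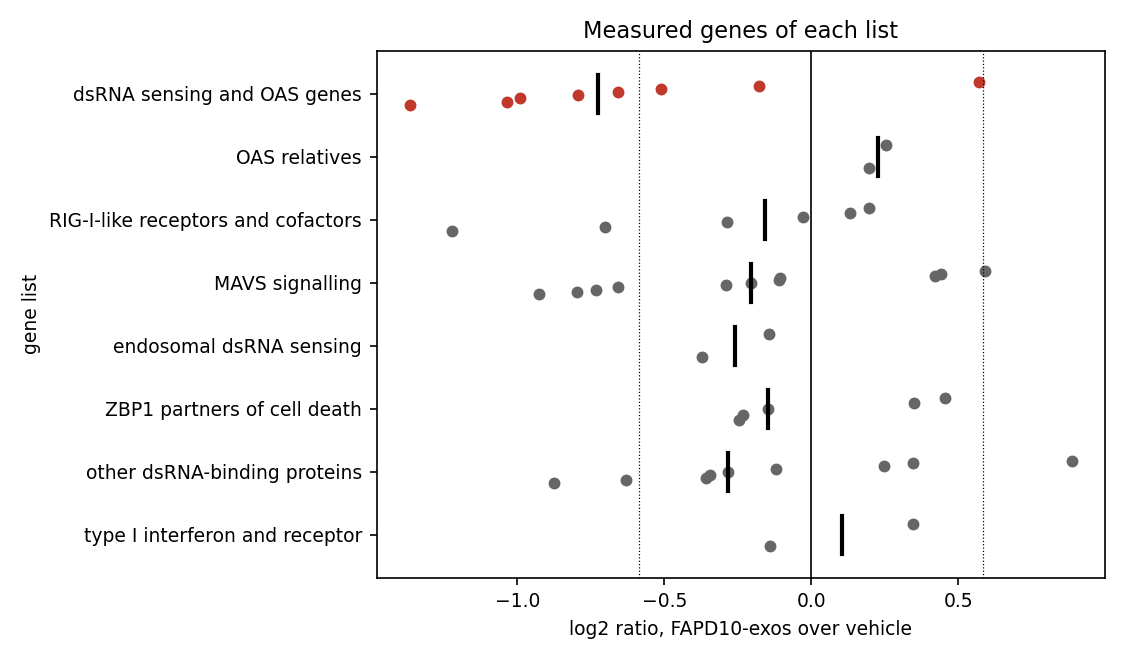
Log2 ratio, FAPD10-exos over vehicle, of each measured gene by list, with the 8 measured members in red and the pathway lists in grey. Black bars are medians, the solid line marks 0 and the dotted lines mark 1.5-fold. The median is -0.72 for the members and lies between -0.28 and 0.23 for the other lists.

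Among 9 measured genes for other double-stranded RNA-binding proteins, 2 were lower and 1 higher. Dhx9, an RNA helicase, was 1.84-fold lower (1.78 to 1.89), and Eif2ak2, which encodes the kinase PKR that halts translation, was 1.55-fold lower (1.48 to 1.62). Neither was past the threshold after the trend with exon length was removed. With the trend by GENCODE transcript length removed instead, Dhx9 stood at -0.66 in log2 and was past it, and Eif2ak2, at -0.39, was not. Ilf2, a nuclear RNA-binding factor gene with 10442 counts in the FAPD10-exos against 5999 counts in the vehicle library, was 1.85-fold higher (1.77 to 1.93). Dicer1 had a ratio of 0.920 (0.848 to 0.998), Tarbp2 1.27 (1.04 to 1.55) and Prkra 1.19 (0.823 to 1.72), all genes of small RNA processing. Dicer1 stood at 0.71 in log2 after the length trend was removed, at least 1.5-fold higher. Stau1 and Stau2, genes of RNA transport, had ratios of 0.780 (0.699 to 0.870) and 0.787 (0.617 to 1.00). Adarb1, a relative of Adar, had a ratio of 0.822 (0.533 to 1.26), and Adarb2 had 0 counts in both libraries.

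Of the 5 partners of ZBP1 in cell death 0 were called in either direction. Ripk3 had a ratio of 1.37 (1.13 to 1.66), Mlkl 0.843 (0.731 to 0.971), Ripk1 0.850 (0.789 to 0.916), Casp8 0.904 (0.836 to 0.977) and Fadd 1.28 (1.04 to 1.57). In the endosomal arm, the receptor gene Tlr3 had 46 counts in the FAPD10-exos and 54 in the vehicle library, and its adaptor gene Ticam1 had 56 and 77, with intervals that included 1. The interferon genes Ifnb1, Ifna1, Ifna2, Ifna4 and Ifna5 had 0 counts in both libraries, which, taken as 0 read pairs, allows up to 3 pairs or 6 counts, that is 0.169 CPM in the FAPD10-exos and 0.159 CPM in the vehicle library. Their receptor genes Ifnar1 and Ifnar2 had ratios of 0.907 (0.757 to 1.09) and 1.27 (1.17 to 1.38), the second uncertain because 22.4% of its exon length overlaps another gene.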

How the data were processed

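The authors deposited 1 table of whole-number counts per gene symbol for both libraries, not normalised, in the layout of featureCounts, per the file headers. The submitters' processing notes name fastp 0.23.4, STAR 2.5.3a, featureCounts and the build GRCh38. That build is human and the symbols are mouse, so it cannot be that of these data, and table positions were not joined to the promoter table. Each column name equals the description of 1 sample. Per the labels, RNA was extracted with TRIzol.

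The members, the pathway lists and the alternatives were chosen with earlier results of these data known. All 9 members and every measured list gene were named, except that some genes are not reported here and are left out of the list counts. With 1 library per group no edgeR quasi-likelihood model could be fitted. Counts were scaled by TMM (edgeR 4.0.16, R 4.3.3), and ratios have exact Clopper-Pearson intervals of the FAPD10-exos share of both counts, after halving, since 76.3% of counts from 1 to 50 in the FAPD10-exos and 75.1% in the vehicle library were even. Levels per kilobase have exact Poisson intervals on halved counts. The length trend was a running median over 50 bins of the deposited exon length. Alternatives were scaling by total counts, median of ratios (DESeq2 1.42.0) or upper quartile, other filters and thresholds, 1 CPM added, intervals from the counts as deposited, and, added after the data were seen, transcript length from GENCODE M21. The procedure was tested on simulated data. The simulated counts were all even and varied by counting error only, so spread between cultures was not part of that test. Protein sequences were not analysed here. Software was Python 3.11.15 with scipy 1.17.1, pandas 2.3.3, matplotlib 3.10.9 and numpy 2.4.6.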

Additional observations from a re-analysis of the deposited data

How the results depend on the processing

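With 1 library per group, no setting tests the spread between cultures. Ratios of Oas2, Oas3, Oasl1, Oasl2, Mavs and Adar stayed below 1 and that of Oas1a above 1 in every setting run. With the exon length trend removed, the interval of Oas1a, 0.994 to 1.30, included 1. With total-count scaling, log2 ratios of measured genes shifted by -0.128 at the median, and the members' median log2 ratio came to -0.85. The ratio of Adar, not in log2, came to 0.581. By this scaling 6 members were at least 1.5-fold lower, among them Mavs, at a ratio of 0.6425. Among all measured genes 2920 were then lower and 1345 higher, against 2305 and 1987 with TMM scaling. With total counts and with median of ratios 1 pathway gene was higher. Of the called genes 46.3% were higher, against 31.5% with total counts and 53.8% with upper quartile, where 1 member, Oas1a, was at least 1.5-fold higher. Upper quartile scaling gave 2360 measured genes higher and 2030 lower. Removing the exon length trend gave ratios of 1.14 for Oas1a, 0.479 for Oas3, 0.469 for Oasl1, 1.18 for Ifih1 and 0.839 for Adar. With this step 2 pathway genes were lower. With GENCODE transcript length, ratios were 1.19 for Oas1a, 0.506 for Oasl1, 1.21 for Ifih1 and 0.867 for Adar. By that length 4 members were lower and Mavs, at 0.682, was not, beside 1594 measured genes lower and 1309 higher. The 3 pathway genes then lower were Trim25, Tank and Dhx9, and the 4 higher were Pde12, Traf2, Dicer1 and Ilf2. A 2-fold threshold left 2 members lower, 1059 measured genes lower and 511 higher, and 1 pathway gene lower and 0 higher. A mean of at least 10 CPM left 3 members lower, 1372 measured genes lower and 1162 higher, and 1 pathway gene higher, since fewer genes were counted. Other causes were not tested. Intervals from the counts as deposited and no filter moved no count by over 1.5 times. No paired analysis was possible because each group holds 1 library.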
